A study of Homo sapiens with 8 samples.

Results

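The anaphase-promoting complex (APC/C), the enzymes that feed it and separase were followed through the mRNA-seq of sorted HT29 cells. HT29 is a colorectal cancer line that carries an activating BRAF mutation and depends on signalling through the kinase MEK. The 10 genes examined are 4 core subunits (ANAPC1, ANAPC2, CDC16 and CDC27), the coactivator FZR1, the inhibitor FBXO5, the ubiquitin-conjugating enzymes UBE2C and UBE2S, securin (PTTG1) and separase (ESPL1). They were taken by symbol from the 38148 genes of the table. All 10 were found, and all 10 were among the 14219 genes expressed highly enough to be tested.

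Cells were left untreated or kept in 1 µM selumetinib, a MEK inhibitor, for 24 h. Glyoxal fixation, staining for the mitotic cyclin CCNB1 and a sort then split them into CCNB1-negative and CCNB1-positive cells. Poly(A) RNA of each of the 4 groups was sequenced as 2 libraries: untreated CCNB1-negative, untreated CCNB1-positive, selumetinib CCNB1-negative and selumetinib CCNB1-positive. HT29 is a single established line, and nothing in the labels says whether the 2 libraries of a group came from separate cultures, so p-values measure the spread between these libraries, which may be technical.

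The labels contradict each other. Where the short description of a library says untreated its title says selumetinib, and where the former says negative the latter says positive, in all 8 libraries and in both directions. The growth medium given in the labels names the same treatment as the title. The description matches the column name of the table. Groups follow the descriptions throughout. Under the titles each selumetinib response below would belong to the other fraction with its sign reversed, and the difference between the 2 responses would keep its value. CCNB1 mRNA, the transcript of the sorting marker, stood at 11.66 and 12.01 in the untreated negative libraries, 13.79 and 14.05 in the untreated positive libraries, 7.92 and 7.22 in the selumetinib negative libraries and 12.76 and 12.53 in the selumetinib positive libraries. These are log2 normalised read counts, in which 4.58 corresponds to 1 RPM, a read count scaled to the depth of the library. Both positive groups lay above their negative group. Of 10 genes known to follow MEK output, 9 fell in the libraries described as selumetinib-treated in each fraction and EGR1 rose in both. Under the titles both positive groups would lie below their negative group in CCNB1 mRNA. Those 9 genes would then rise with the drug and EGR1 would fall.

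Reads on genes numbered between 12696860 and 23916160 per library, with the smallest totals in the selumetinib CCNB1-negative libraries. The summed level of 8 colon epithelial markers was 4580 to 11017 RPM, lowest in a selumetinib CCNB1-negative library. KRT8, at 1965 to 5592 RPM, and KRT18, at 1670 to 4107 RPM, dominated it, whereas CDX1 and CDX2 stood between 0.627 and 6.81 RPM. In negative cells EPCAM, KRT8 and KRT18 were lower with selumetinib, and VIL1 and CDX2 were higher. The sum of 9 markers of blood, fibroblast, endothelial and nerve cells was 7.57 to 19.1 RPM. The part of such other cells in the results was not tested.

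APC/C is a ubiquitin ligase that marks mitotic proteins for degradation. CDC20 or FZR1 (also called CDH1) brings the substrates, UBE2C places the first ubiquitins, UBE2S extends the chains and FBXO5 (EMI1) blocks the complex from the start of S phase until mitosis. Securin holds separase inactive until it is destroyed, after which separase cuts the cohesin ring and sister chromatids part. Many of these regulators are themselves transcribed mainly in late S phase and G2, under factors that read CHR and CCAAT elements and E2F sites near the start of transcription.

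The 150 bases before the annotated start were read from RefSeq sequence of build GRCh38.p14 for 9 of the 10 genes, all but UBE2C. FZR1, FBXO5 and PTTG1 each had 2 annotated starts. The windows are shown for 4 of the genes that fell together in drug-treated CCNB1-negative cells and for CDC16, a core subunit that passed the test in none of the 5 comparisons. Bases are written 5′ to 3′ on the strand of the gene. Capitals mark matches, on either strand, to the CHR letters TTTGAA, to CCAAT, or to the E2F letters TTTCCCGC, TTTCGCGC, TTTGCCGC and TTTGGCGC.
FBXO5, chr6:152983042-152983191, minus strand, downstream start: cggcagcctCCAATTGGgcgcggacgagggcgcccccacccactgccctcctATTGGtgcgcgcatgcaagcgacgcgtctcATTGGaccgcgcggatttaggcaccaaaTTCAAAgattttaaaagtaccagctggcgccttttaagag
ESPL1, chr12:53268149-53268298, plus strand: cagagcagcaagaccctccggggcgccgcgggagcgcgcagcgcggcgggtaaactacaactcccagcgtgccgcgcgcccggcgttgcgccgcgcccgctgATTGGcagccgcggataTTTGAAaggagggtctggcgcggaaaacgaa
PTTG1, chr5:160421705-160421854, plus strand, upstream start: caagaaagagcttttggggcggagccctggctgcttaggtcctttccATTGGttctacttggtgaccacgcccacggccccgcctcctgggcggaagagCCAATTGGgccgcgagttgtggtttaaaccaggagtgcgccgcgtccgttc
UBE2S, chr19:55407789-55407938, minus strand: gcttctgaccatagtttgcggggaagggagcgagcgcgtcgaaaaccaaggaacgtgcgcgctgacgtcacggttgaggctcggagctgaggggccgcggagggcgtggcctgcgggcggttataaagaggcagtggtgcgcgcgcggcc
CDC16, chr13:114234747-114234896, plus strand: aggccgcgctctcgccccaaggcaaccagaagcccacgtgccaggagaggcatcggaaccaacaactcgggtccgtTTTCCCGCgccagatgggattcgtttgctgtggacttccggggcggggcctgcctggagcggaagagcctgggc

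The FBXO5 window held 1 CHR match, 35 to 40 bases before the start, and 4 CCAAT matches, of which the 2 farthest from the start overlapped each other. ESPL1 held 1 CHR match at 26 to 31 bases before the start and 1 CCAAT match at 44 to 48 bases. PTTG1 held 3 CCAAT matches, 2 of them overlapping, and no CHR match, and the window of its downstream start held the 2 overlapping ones. UBE2S held none of the letters searched. CDC16 held 1 E2F match and nothing else. The windows of ANAPC1, ANAPC2, CDC27, both starts of FZR1 and the upstream start of FBXO5 held no match. Of all 35116 windows of the same length, 7.33% held a CHR match, 23.5% a CCAAT match, 1.80% an E2F match and 1.94% both a CHR and a CCAAT match. A match of letters is a description and not a bound site.

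With selumetinib the 4 core subunits and FZR1 parted from the other 5 genes. In CCNB1-negative cells selumetinib lowered FBXO5, UBE2C, UBE2S, PTTG1 and ESPL1 between 4.30-fold and 13.6-fold, whereas none of the 4 core subunits was called lower and CDC27 rose 1.39-fold. In CCNB1-positive cells the same drug lowered UBE2S, UBE2C and FBXO5 1.82-fold to 2.33-fold and ANAPC1 1.41-fold, and left securin and separase without a called change. The median log2 change of the 4 core subunits was 0.15 in the negative and 0.03 in the positive fraction, and that of the other 6 genes was -3.38 and -0.58. Over all genes tested the medians were 0.05 and 0.17. The 4 core subunits do not stand for the whole complex. Of the other 10 APC/C subunits 8 were called lower in negative cells, against 35.8% of all genes tested, with a median of -0.86. Over all 14 subunits the median there was -0.45.

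**Figure D1:**
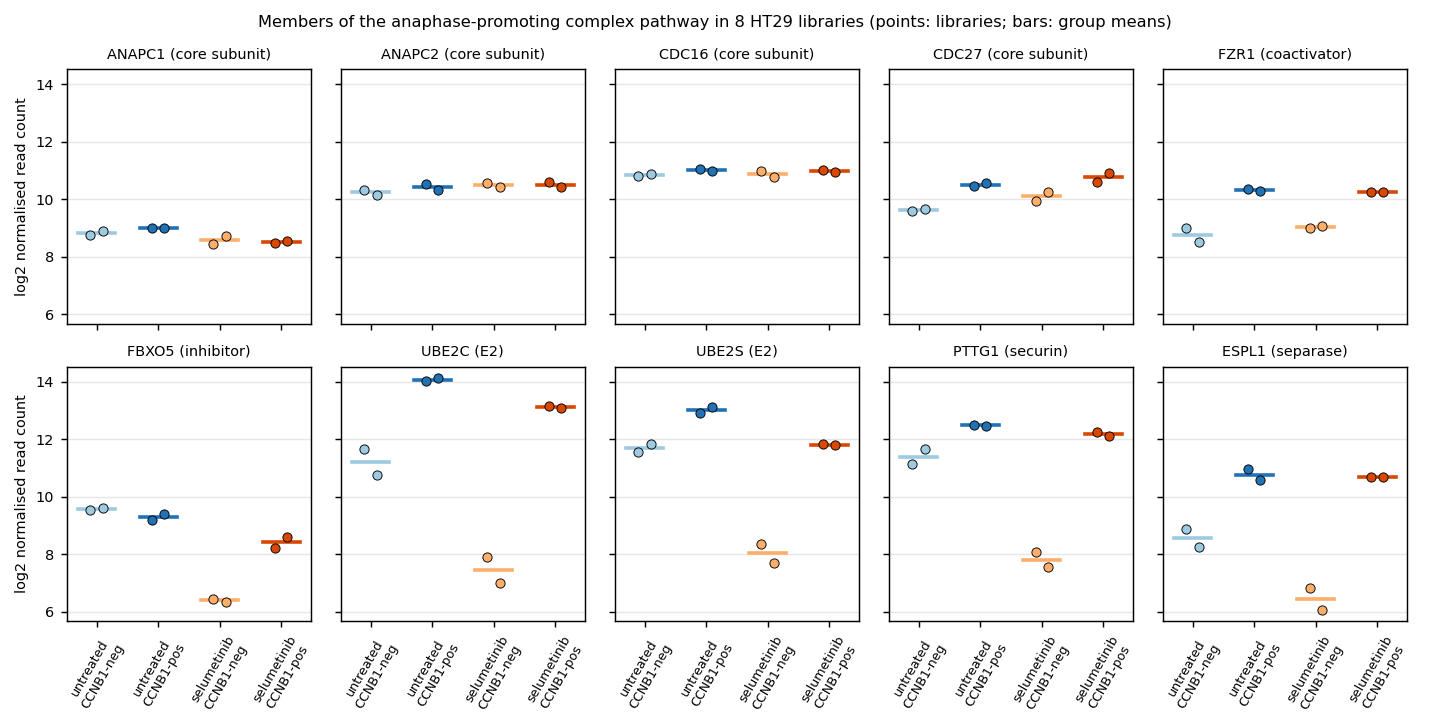
Level of each of the 10 genes (vertical axis, log2 normalised read count) in the 2 libraries of each of the 4 groups (horizontal axis); points are libraries and bars are group means. ANAPC1, ANAPC2 and CDC16 stay within a narrow band, while UBE2C runs from 7.01 in a selumetinib CCNB1-negative library to 14.13 in an untreated CCNB1-positive one.

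Calls were made with limma across all genes tested, at a Benjamini-Hochberg adjusted p under 0.05. With selumetinib in CCNB1-negative cells 74.1% of all genes tested were called, 38.2% higher and 35.8% lower, and of the 10 genes 1 was called higher and 5 lower. In CCNB1-positive cells 65.3% were called, 38.0% higher and 27.3% lower, against 0 of the 10 higher and 4 lower. With so many genes called, the sizes of the changes tell the genes apart better than the counts do. Between fractions fewer genes were called, 2.87% without drug and 21.6% with it. CCNB1-positive exceeded CCNB1-negative cells at 1.36% and 13.8% of genes, and lay below at 1.51% and 7.87%. The positive fraction was higher for 6 of the 10 genes without drug and for 7 with it, and was lower for 0 in either case. In a bulk sample, fewer cells that express a gene and less RNA per cell cannot be told apart.

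Of the 4 core subunits, CDC16 and ANAPC2 were called in none of the 5 comparisons. CDC16 (chr13:114234887-114272723), a scaffold subunit built of tetratricopeptide repeats, stood at 10.82 and 10.88 in the untreated negative libraries, 11.06 and 10.99 in the untreated positive, 10.99 and 10.79 in the selumetinib negative and 11.01 and 10.97 in the selumetinib positive libraries. All 8 values lay between 10.79 and 11.06. The untreated negative libraries lay below both positive groups, while the selumetinib negative pair spanned from 10.79 to 10.99. Its response to selumetinib was 0.05 ± 0.14 (log2, SE) in negative cells and -0.03 ± 0.14 in positive cells, with 95% intervals of -0.25 to 0.34 and -0.33 to 0.26.

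ANAPC2 (chr9:137174784-137188560), the cullin that forms the catalytic centre with ANAPC11, read 10.34 and 10.16, then 10.53 and 10.34, 10.56 and 10.45, and 10.59 and 10.44 in the same order of groups. The lowest library was an untreated negative one, and the untreated negative and untreated positive libraries overlapped narrowly at 10.34. Its response was 0.26 ± 0.15 in negative cells (adjusted p = 0.132) and 0.09 ± 0.15 in positive cells (adjusted p = 0.623). The first passed the threshold under quantile normalisation, at 0.38 with an adjusted p of 0.027, and with a pseudocount of 0.1 RPM, at 0.39 with an adjusted p of 0.026.

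ANAPC1 (chr2:111611639-111884690), the largest scaffold subunit, read 8.76 and 8.92 in untreated negative, 9.01 and 9.02 in untreated positive, 8.46 and 8.74 in selumetinib negative and 8.50 and 8.54 in selumetinib positive cells. The positive libraries with drug lay below those without it, and so did the negative ones, where the closest pair was 8.74 against 8.76. In positive cells it fell by 0.50 ± 0.17 on the log2 scale (1.41-fold, adjusted p = 0.020). That call was lost when any of the 4 CCNB1-positive libraries was left out, with a change between -0.52 and -0.47 and an adjusted p of 0.066 to 0.090. In negative cells the change was -0.24 ± 0.17 (adjusted p = 0.224). The gene spans a short same-strand locus, AC017002.6, with 60 to 284 reads per library. That locus fell by 1.62 with drug in negative cells (adjusted p = 7.54e-05) and changed by -0.41 in positive cells (adjusted p = 0.189), and it is not stated how reads in the shared stretch were counted.

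CDC27 (chr17:47117703-47189422), the scaffold subunit that holds the coactivators, was the only one of the 4 that was called between the fractions. It read 9.59 and 9.69 in untreated negative, 10.47 and 10.57 in untreated positive, 9.94 and 10.28 in selumetinib negative and 10.62 and 10.93 in selumetinib positive cells. Positive libraries lay above negative ones within each treatment, with no overlap. The excess in positive cells was 0.88 ± 0.16 without drug (1.85-fold, adjusted p = 0.0069) and 0.67 ± 0.16 with it (1.59-fold, adjusted p = 0.011). Without untreated negative replicate 1 the first was 0.83 with an adjusted p of 0.057, and without untreated positive replicate 2 it was 0.83 with an adjusted p of 0.078. Without selumetinib positive replicate 2 the excess with drug was 0.52 with an adjusted p of 0.113.

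Selumetinib raised CDC27 by 0.47 ± 0.16 in negative cells (1.39-fold, adjusted p = 0.018) and the change in positive cells was 0.25 ± 0.16 (adjusted p = 0.185). The rise in negative cells rested on a few libraries. It was 0.30 with an adjusted p of 0.137 without selumetinib negative replicate 2, and 0.42 with an adjusted p of 0.086 without untreated negative replicate 1. A same-strand transcript inside the gene, AC002558.3, rose by 2.24 (adjusted p = 2.53e-04) and 2.51 (adjusted p = 1.53e-04) in the negative and positive fractions, from 22 reads in its lowest library to 181 in its highest. Its part in the CDC27 values was not tested.

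The other 10 APC/C subunits were read from the same fit. In CCNB1-negative cells with selumetinib 8 of the 10 were called lower and ANAPC16 higher, with a median change of -0.86. In CCNB1-positive cells 5 were lower and ANAPC16 higher, with a median of -0.39. Of all genes tested 35.8% were lower and 38.2% higher in negative cells, and 27.3% and 38.0% in positive cells. ANAPC13, a small subunit that stabilises the scaffold, fell by 1.33 (adjusted p = 7.80e-05) in negative and by 1.18 (adjusted p = 3.23e-04) in positive cells. ANAPC16 rose by 0.54 (adjusted p = 0.0032) and 0.50 (adjusted p = 0.0065). Over all 14 subunits 8 were lower and 2 higher in negative cells, and 6 lower and 1 higher in positive cells.

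Between fractions without drug 0 of these 10 subunits were called, and the changes ran from -0.26 to 0.12. Only 2.87% of all genes tested were called there, so the count does not set the subunits apart. With drug ANAPC11, ANAPC15 and ANAPC7 were higher in positive cells, as were 13.8% of all genes tested. ANAPC11, the RING subunit that binds the charged E2, was lower by 0.95 with selumetinib in negative cells (adjusted p = 2.46e-05) and changed by -0.11 in positive cells (adjusted p = 0.489). Of the 14 subunits it was the only one called for a difference of the responses, of 0.84 ± 0.19 (adjusted p = 0.020). The share called for it over all genes tested was 5.33%.

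FZR1 (chr19:3506273-3538330), the coactivator that works with APC/C from late mitosis through G1, was called between the fractions and was not called for selumetinib. It read 9.01 and 8.52 in untreated negative, 10.38 and 10.31 in untreated positive, 9.0 and 9.06 in selumetinib negative and 10.26 and 10.25 in selumetinib positive cells. Every positive library lay at 10.25 or above and every negative library at 9.06 or below. The excess was 1.58 ± 0.17 without drug (2.99-fold, 95% interval 2.31 to 3.86, adjusted p = 6.67e-05) and 1.22 ± 0.17 with it (2.33-fold, 1.81 to 3.01, adjusted p = 1.98e-04).

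The response of FZR1 to selumetinib was 0.27 ± 0.17 in negative cells (adjusted p = 0.171) and -0.09 ± 0.17 in positive cells (adjusted p = 0.665), and the difference of the responses was -0.36 with a 95% interval of -0.88 to 0.16. The former passed the threshold without untreated negative replicate 1, the higher of its group, at 0.51 with an adjusted p of 0.026, and with a pseudocount of 0.1 RPM at 0.40 with an adjusted p of 0.048. CDC20, the coactivator of early mitosis, fell by 4.07 in negative cells (adjusted p = 7.18e-10) and by 0.66 in positive cells (adjusted p = 0.0023). MFSD12 overlaps FZR1 on the opposite strand and fell by 1.29 and 1.05 in the 2 fractions, and whether the table was counted by strand is not stated.

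FBXO5 (chr6:152970519-152983579) read 9.54 and 9.62 in untreated negative, 9.19 and 9.39 in untreated positive, 6.46 and 6.35 in selumetinib negative and 8.24 and 8.61 in selumetinib positive cells. The selumetinib negative libraries were far below all others, at 56 and 48 reads, and the selumetinib positive libraries were below both untreated groups. It fell by 3.18 ± 0.19 with selumetinib in negative cells (9.06-fold, 95% interval 6.86 to 12, adjusted p = 8.20e-09) and by 0.87 ± 0.19 in positive cells (1.82-fold, 1.38 to 2.41, adjusted p = 0.0011). Of the 6 genes outside the core, FBXO5 alone was not called higher in positive cells without drug. There its difference was -0.29 ± 0.19 (adjusted p = 0.584), whereas with drug positive cells exceeded negative cells by 2.02 ± 0.19 (4.07-fold, adjusted p = 2.76e-06).

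UBE2C (chr20:45812576-45816957) had the widest range of the 10 genes. It read 11.68 and 10.78 in untreated negative, 14.04 and 14.13 in untreated positive, 7.93 and 7.01 in selumetinib negative and 13.17 and 13.09 in selumetinib positive cells. The lowest pair stood for 155 and 76 reads and the highest for 16897 and 16315. The libraries of each negative group lay far apart, those of each positive group close together, and no 2 groups overlapped.

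In negative cells UBE2C fell by 3.76 ± 0.28 with selumetinib (13.6-fold, 95% interval 8.93 to 20.6, adjusted p = 6.14e-08). In positive cells it fell by 0.95 ± 0.28 (1.94-fold, 1.28 to 2.94, adjusted p = 0.0085). The latter was lost under quantile normalisation, which gave -0.38 with an adjusted p of 0.308. Positive cells exceeded negative cells 7.24-fold without drug (4.77 to 11, adjusted p = 2.82e-05) and 50.7-fold with it (33.4 to 76.9, adjusted p = 2.65e-09).

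UBE2S (chr19:55399745-55407788) read 11.55 and 11.84, then 12.92 and 13.15, 8.38 and 7.70, and 11.83 and 11.79 in untreated negative, untreated positive, selumetinib negative and selumetinib positive cells. The selumetinib positive libraries fell to the level of the untreated negative ones, whose range held both of them. UBE2S fell by 3.66 ± 0.20 in negative cells (12.6-fold, adjusted p = 4.61e-09) and by 1.22 ± 0.20 in positive cells (2.33-fold, adjusted p = 1.13e-04), the largest fall of the 10 genes in that fraction. Positive cells exceeded negative cells 2.53-fold without drug (adjusted p = 0.0011) and 13.7-fold with it (adjusted p = 4.85e-09). RPL28, which overlaps it on the opposite strand with 14115 to 22434 reads, changed by -0.03 and 0.17 with the drug (adjusted p = 0.885 and 0.407).

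PTTG1 (chr5:160421855-160428739) read 11.13 and 11.66 in untreated negative, 12.51 and 12.48 in untreated positive, 8.08 and 7.56 in selumetinib negative and 12.28 and 12.14 in selumetinib positive cells. The positive libraries were high with and without drug, and the selumetinib negative pair stood apart at 172 and 111 reads. Securin mRNA fell by 3.58 ± 0.20 with selumetinib in negative cells (12-fold, 95% interval 8.94 to 16.0, adjusted p = 5.13e-09). In positive cells its change was -0.29 ± 0.20, with an interval of -0.71 to 0.13 (adjusted p = 0.211).

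Positive cells held 2.14-fold more PTTG1 mRNA than negative cells without drug (adjusted p = 0.0055) and 21.0-fold more with it (15.7 to 28.1, adjusted p = 9.61e-10). The former was 0.83 on the log2 scale with an adjusted p of 0.066 without untreated negative replicate 1, the lower of that pair. The near-identical gene PTTG2 had 0 to 3 reads per library. Near-identical copies of the other genes examined were not looked up.

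ESPL1 (chr12:53268299-53293643) read 8.87 and 8.26 in untreated negative, 10.96 and 10.60 in untreated positive, 6.84 and 6.08 in selumetinib negative and 10.70 and 10.70 in selumetinib positive cells. The positive groups overlapped, and the 2 negative groups lay below them and apart from each other. Separase mRNA fell by 2.1 ± 0.25 with selumetinib in negative cells (4.30-fold, 95% interval 2.97 to 6.23, adjusted p = 3.90e-06), the smallest of the 5 falls there. Its change in positive cells was -0.08 ± 0.25, with an interval of -0.61 to 0.45 (adjusted p = 0.791). Under quantile normalisation the changes of PTTG1 and ESPL1 in positive cells turned to 0.07 and 0.03, and neither was called. Positive cells exceeded negative cells 4.64-fold without drug (adjusted p = 9.28e-05) and 18.9-fold with it (adjusted p = 1.69e-08).

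**Figure D2:**
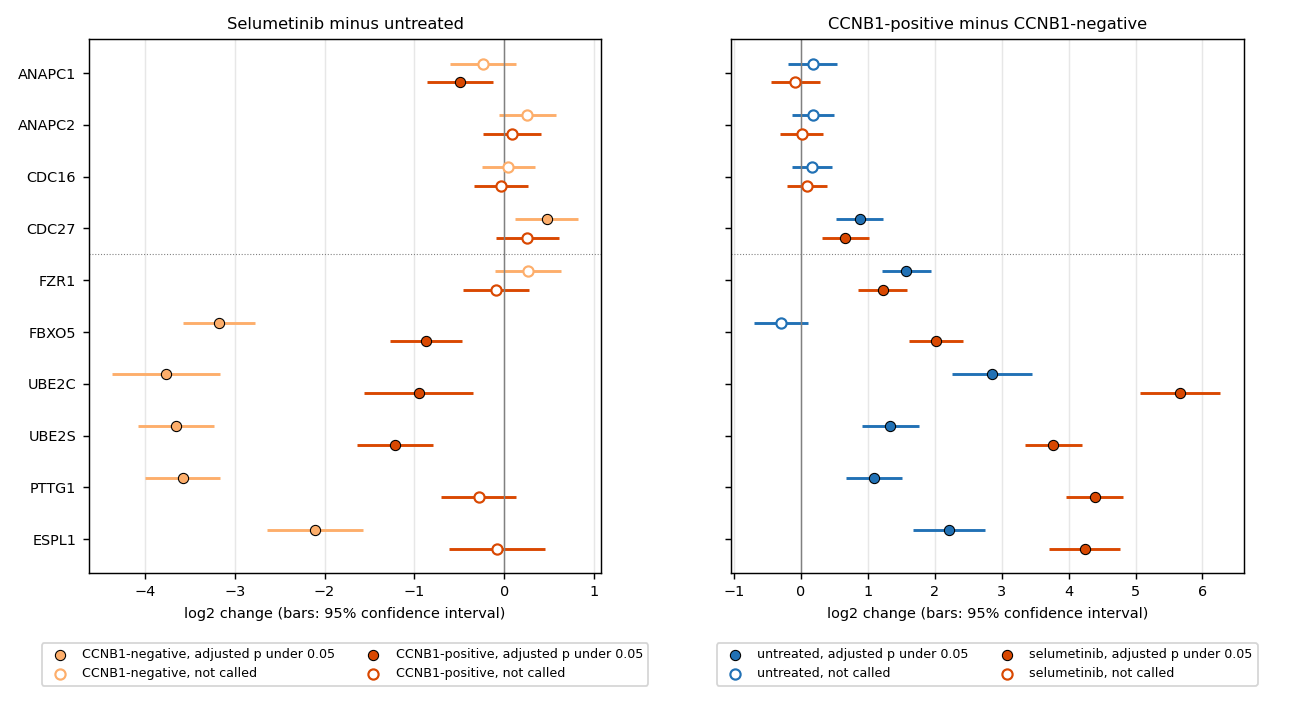
Log2 change (horizontal axis) of each gene with its 95% confidence interval, left for selumetinib against untreated in each fraction and right for CCNB1-positive against CCNB1-negative cells in each treatment; filled points passed an adjusted p of 0.05 and open points did not. FBXO5, UBE2C, UBE2S, PTTG1 and ESPL1 lie between -3.76 and -2.1 in drug-treated negative cells, and UBE2C reaches 5.66 between the fractions with drug.

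The responses of the 2 fractions were compared by testing their difference. Over all genes tested 5.33% were called, 4.99% with a higher response in positive cells and 0.345% with a lower one. Of the 10 genes 5 were called, each with a less negative response in positive cells. The difference was 3.29 ± 0.28 for PTTG1 (adjusted p = 5.24e-06), 2.81 ± 0.40 for UBE2C (adjusted p = 3.98e-04), 2.44 ± 0.28 for UBE2S (adjusted p = 5.71e-05), 2.31 ± 0.26 for FBXO5 (adjusted p = 5.71e-05) and 2.02 ± 0.35 for ESPL1 (adjusted p = 0.0025). All 5 were called in every alternative run. This difference equals the gap between fractions with drug minus that without it, so it is tied to the sort on CCNB1 protein. CCNB1 mRNA itself gave 2.99 (adjusted p = 1.79e-05). The part of the sort in these calls was not tested. The 4 core subunits and FZR1 had differences between -0.36 and -0.08, none of them called, with 95% intervals that together ran from -0.88 to 0.34. The median difference was -0.19 for the core, 2.37 for the other 6 genes and 0.11 over all genes tested.

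Other substrates of APC/C fell widely with the drug in negative cells. All 20 on the list were lower with selumetinib in negative cells, with a median change of -3.41, and 18 were lower in positive cells, with a median of -0.88. Of all genes tested 35.8% were lower in negative and 27.3% in positive cells. FOXM1, a transcription factor of G2 genes, changed by -0.06 in positive cells (adjusted p = 0.742) and GMNN, the inhibitor of origin licensing, by -0.34 (adjusted p = 0.094). Of the 20, 19 differed in response between the fractions, GMNN being the exception at 0.81 (adjusted p = 0.071). The share called over all genes tested was 5.33%.

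Between the fractions of untreated cells the substrates went both ways. In positive cells 14 were higher, with CCNB1 at 2.09 (adjusted p = 3.34e-05), and CDC6, a licensing factor of G1, was lower by 1.51 (adjusted p = 5.82e-05). Over all genes tested 1.36% were higher and 1.51% lower. With drug 19 were higher in positive cells, against 13.8% of all genes tested, CDC6 among them at 1.49 (adjusted p = 1.53e-05). The sort was made on CCNB1 protein, so the difference in CCNB1 mRNA is not independent of it. Differences between the fractions in other genes transcribed mainly in late S phase and G2 are tied to that sort as well. The same holds for their differences of response.

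Among 11 other regulators 9 were tested, and FBXO43 and USP44 fell below the limit on expression. In negative cells 7 were lower with selumetinib and OTUD7B was higher, with a median of -2.17. Over all genes tested 35.8% were lower there and 38.2% higher. MAD2L1, the checkpoint protein that holds CDC20, fell by 4.51 (adjusted p = 7.18e-10) in negative cells and by 1.57 (adjusted p = 7.60e-06) in positive cells. OTUD7B, a deubiquitinase that removes K11-linked chains, rose by 2.06 (adjusted p = 3.61e-07) and by 1.53 (adjusted p = 1.17e-05). In positive cells 5 regulators were lower and 2, OTUD7B and USP37, were higher, against 27.3% and 38.0% of all genes tested. Between fractions 3 were higher in positive cells without drug and 5 with it, and USP37, a deubiquitinase of cyclin A, was lower in untreated positive cells by 0.82 (adjusted p = 0.011). The shares higher over all genes tested were 1.36% without drug and 13.8% with it, and 1.51% were lower without it.

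Cohesin, the target of separase, was read from 5 ring and STAG genes. RAD21, the subunit that separase cuts, fell by 2.19 (adjusted p = 1.57e-07) in negative and by 0.84 (adjusted p = 0.0012) in positive cells, and SMC1A and SMC3 were lower in both. STAG1 rose by 1.09 (adjusted p = 1.34e-04) and 0.80 (adjusted p = 0.0021), and STAG2 was called in neither. None of the 5 was called between the fractions of untreated cells, where changes ran from -0.10 to 0.42. Only 2.87% of all genes tested were called there, so this does not set the 5 apart. With drug RAD21, SMC1A and SMC3 were called higher in positive cells, RAD21 by 1.77 (adjusted p = 9.03e-06), and RAD21 and SMC1A were called for the difference of responses. The shares over all genes tested were 13.8% higher with drug and 5.33% called for the difference.

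**Figure D3:**
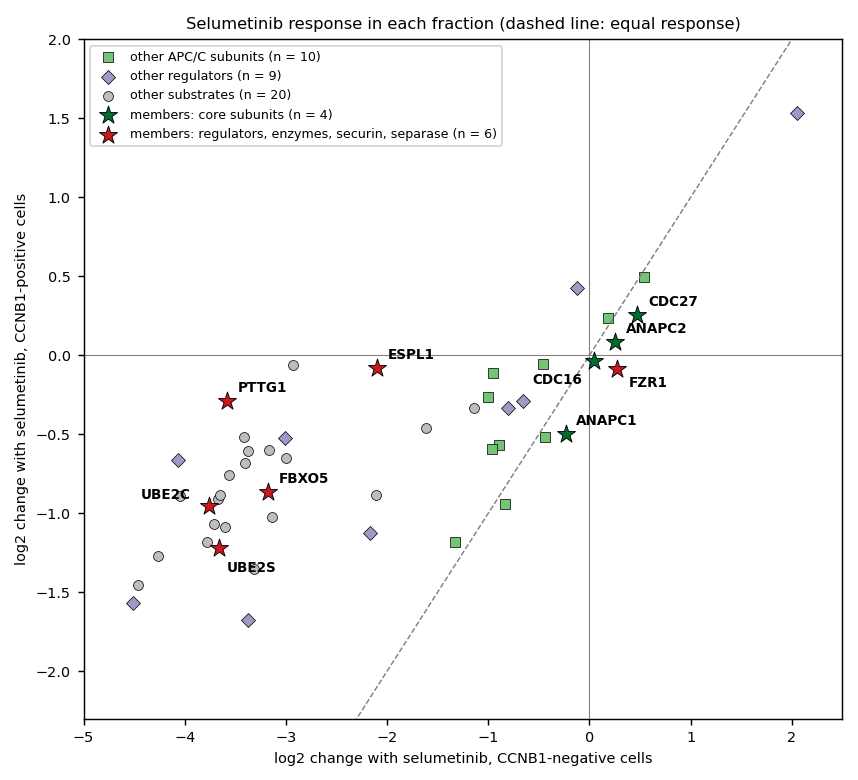
Log2 change with selumetinib in CCNB1-negative cells (horizontal axis) against CCNB1-positive cells (vertical axis) for the 10 genes and for the other APC/C subunits, regulators and substrates; each point is a gene and the dashed line marks an equal response. ANAPC2, CDC16 and FZR1 lie within 0.27 of 0 on both axes, the other subunits reach -1.33 in negative cells, and PTTG1 sits at -3.58 and -0.29, far from the line of equal response.

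Levels can be compared between genes only per length of transcript. The unit used is RPKM, reads per kilobase of annotated exon scaled to the reads on genes of the library, and means of 2 libraries are given. In untreated CCNB1-positive cells UBE2C led at 563, followed by UBE2S at 125 and PTTG1 at 122. CDC16 stood at 21.9, ANAPC2 at 10.6, CDC27 at 8.96, FZR1 at 8.35, ESPL1 at 8.30, FBXO5 at 6.79 and ANAPC1 at 1.54. UBE2S and PTTG1 overlapped between libraries, and ESPL1, at 9.35 and 7.25, overlapped with CDC27 and with FZR1, so the order within these is not resolved.

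In selumetinib CCNB1-negative cells the order turned over. CDC16 led at 22.1, then ANAPC2 at 12.3 and CDC27 at 7.49, ahead of UBE2C at 6.64, PTTG1 at 5.33, UBE2S at 4.44, FZR1 at 3.72, ANAPC1 at 1.29, FBXO5 at 1.01 and ESPL1 at 0.47. UBE2C, whose libraries read 8.62 and 4.65, overlapped with CDC27, PTTG1 and UBE2S. UBE2S, at 5.41 and 3.46, also overlapped with PTTG1 and spanned both libraries of FZR1, so the order within these is not resolved. The other groups kept UBE2C, PTTG1 and UBE2S at the top, at 82.0, 58.0 and 49.8 in untreated negative and at 312, 107 and 57.5 in selumetinib positive cells. In the untreated negative libraries PTTG1, at 47.7 and 68.3, overlapped with UBE2C and with UBE2S.

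Ratios within a library do not depend on its depth. Whether a ratio lies above or below 1 does depend on the exon lengths used. UBE2C per median core subunit was 14.6 and 8.26 in untreated negative, 54.9 and 60.4 in untreated positive, 0.899 and 0.458 in selumetinib negative and 27.9 and 25.1 in selumetinib positive cells. UBE2S on the same scale was 6.13 and 7.94, 11.6 and 14.1, 0.565 and 0.340, and 5.07 and 4.70. Both enzymes were below the median core subunit in the selumetinib negative libraries and above it in all the others.

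The ratio of the inhibitor to the coactivator, FBXO5 per FZR1, was 2.42 and 3.61 in untreated negative cells. It was 0.740 and 0.889 in untreated positive, 0.288 and 0.256 in selumetinib negative and 0.415 and 0.538 in selumetinib positive cells. It exceeded 1 in the untreated negative group only, among these 8 libraries. The ratio of the coactivators, CDC20 per FZR1, was 18.1 and 24.8, 24.7 and 28.7, 1.23 and 0.889, and 18.5 and 17.4, and the selumetinib negative libraries were alone near 1.

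Securin exceeded its partner separase in every library. PTTG1 per ESPL1 was 21.5 and 47.7 in untreated negative, 13.2 and 16.5 in untreated positive, 10.6 and 12.5 in selumetinib negative and 13.4 and 12.2 in selumetinib positive cells. The untreated negative pair was the highest and also the widest apart, and the other 6 libraries lay between 10.6 and 16.5. UBE2C per UBE2S was 2.38 and 1.04, 4.74 and 4.29, 1.59 and 1.34, and 5.51 and 5.34, higher in positive than in negative libraries with and without drug. These are ratios of mRNA, and protein was not measured here.

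**Figure D4:**
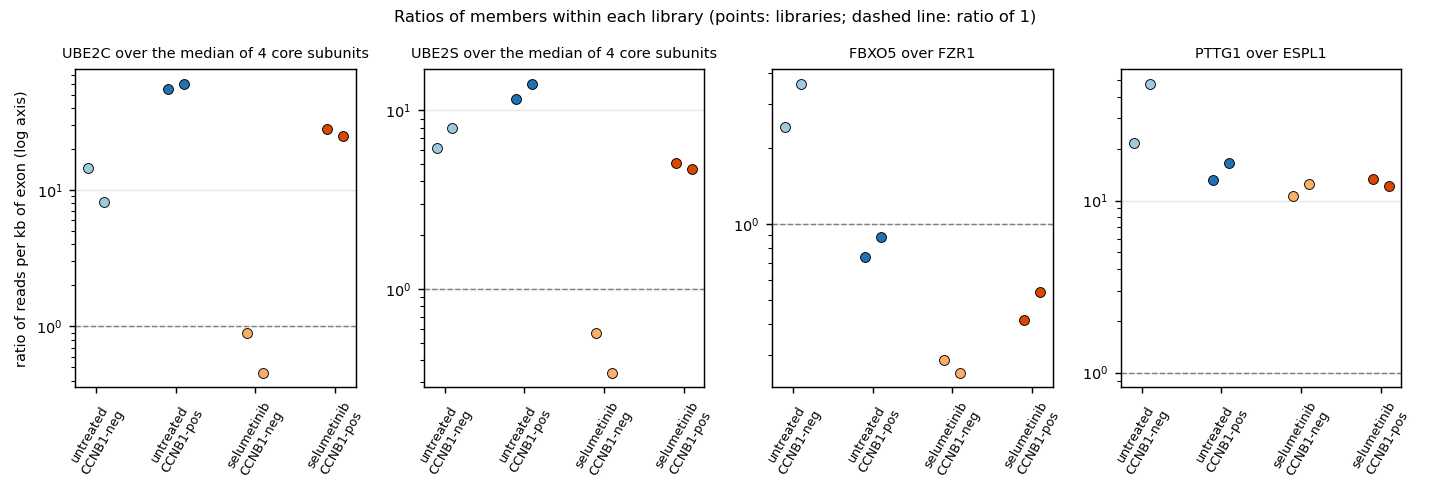
Ratios of reads per kilobase of exon within each library (vertical axis, log scale) for 4 pairs of quantities in the 4 groups (horizontal axis); points are libraries and the dashed line marks a ratio of 1. UBE2C and UBE2S drop below the median core subunit in the selumetinib CCNB1-negative libraries, down to 0.458 and 0.340, while PTTG1 stays at 10.6 or more times ESPL1.

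The genes most like each member were sought among the 10109 other genes that averaged 10 RPM or more, by the root-mean-square difference of centred log2 values over the 8 libraries. The closest to UBE2C was KIF20A (0.23), to UBE2S CCNA2 (0.17), to PTTG1 BIRC5 (0.18), to ESPL1 GPSM2 (0.28) and to FBXO5 ORC6 (0.12). For comparison, these 5 members varied around their own means by 1.25 to 2.55. FZR1 was closest to CDC25B (0.13) and CDC27 to KIAA0586 (0.16), against variation of their own of 0.72 and 0.45. ANAPC1, ANAPC2 and CDC16 were closest to YES1, ZNF592 and MTMR14 at 0.03 to 0.05, but varied by only 0.09 to 0.21 themselves, so that many flat genes lie near them. The second in line was IQGAP3 for ESPL1, PIMREG for UBE2C, ERCC6L for UBE2S, CDKN3 for PTTG1 and TEDC2 for FBXO5. For the others it was CNTRL for FZR1, MPHOSPH9 for CDC27, UBE3C for ANAPC1, CDH3 for ANAPC2 and CLN3 for CDC16.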

How the data were processed

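HT29 mRNA-seq was analysed in 8 libraries, 4 groups of 2, made with a directional poly(A) kit. Per the labels and methods, adapters were removed by the authors (Trim Galore 0.5.0), alignment to GRCh38 was done in HISAT2 2.1.0, and genes were quantified in SeqMonk 1.47.0. The deposited values are log2 read counts normalised to the total read count of the largest library, with genes without reads set at the log2 of 0.9 plus a library constant. The annotation release and strand handling are not given in the sources used here. The labels name another medium than the methods. The 8 value columns were all used, and 0 columns were left out. Undoing the scaling gave whole reads, within 0.1 read, at 100% of genes that had any. Coordinates are those of the table; 99.3% of its identifiers were in GENCODE 44, which gave exon lengths.

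The filter on low expression was an average log2 value of 4.58 (1 RPM) and left 14219 genes. limma 3.58.1 (R 4.3.3) with a mean-variance trend was fitted to all 8 libraries, two-sided, with Benjamini-Hochberg adjustment over all genes tested and no covariate. The fit was also run on simulated data with changes in far fewer genes than were called with selumetinib here. That run therefore does not cover a change of this breadth. The study's own test was one for counts and was not used on these log2 values. Intervals are 95% intervals of the fit. Reads carry no molecular identifiers, so counts bound counting error only. Replicates differed beyond sampling noise, with a chi-square per gene of 17.3 to 33.5.

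The members and gene lists were chosen with earlier results of these data known. All members are named; genes of the lists are counted, with examples, and the 2 most alike genes per member are named. The alternatives were a stricter threshold, a 2-fold minimum, other expression filters, quantile normalisation, limma-voom with TMM factors on the recovered reads, a pseudocount, replicate blocks, smaller fits and each library left out.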

Additional observations from a re-analysis of the deposited data

Results flagged for a closer look

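At 5 of the 10 genes the drug response was unequal in the 2 fractions by the test of the difference itself (limma, adjusted over all genes tested, 5.33% called). On the log2 scale the response of CCNB1-positive cells minus that of CCNB1-negative cells was 3.29 for PTTG1, 2.81 for UBE2C, 2.44 for UBE2S, 2.31 for FBXO5 and 2.02 for ESPL1. In each case both libraries of the selumetinib CCNB1-negative group lay below the other 6 libraries. These differences are tied to the sort on CCNB1 protein, and its part in them was not tested.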

How the results depend on the processing

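Of the values of the 10 genes under each alternative, 845 kept their direction or side of the threshold, 21 lost a call, 4 gained one and none that was called changed sign. In CCNB1-negative cells the number of members higher with selumetinib was 1; it was 0 at an adjusted p of 0.01 and 0 with a 2-fold minimum, 2 under quantile normalisation, 3 with a pseudocount of 0.1 RPM, and 0 to 1 with each library left out. The number lower was 5 in all of these. In CCNB1-positive cells the number lower was 4, or 1 with a 2-fold minimum, and 3 to 4 with each library left out. ANAPC1, at an adjusted p of 0.020, was not called there at 0.01, and UBE2C was not called under quantile normalisation. The number higher in positive cells was 4 to 6 without drug and 6 to 7 with drug when a library was left out, and the 5 differences of response were called each time. Counts over all genes moved more. Between untreated fractions 408 genes were called, against 217 at an adjusted p of 0.01, 255 with a 2-fold minimum, 259 with no filter, 254 under quantile normalisation and 224 to 455 with a library left out. With drug the 3077 became 1338, 908, 2326, 4184 and 1156 to 4279, and the 758 differences of response became 426, 621, 496, 1057 and 489 to 1806, the extremes with drug being without selumetinib CCNB1-negative replicate 2 and replicate 1. A 2-fold minimum left 6758 of 10530 and 4874 of 9288 genes called with selumetinib. Quantile normalisation moved the median change in positive cells from 0.17 to -0.08 (0.03 with limma-voom) and the share of calls that were higher from 58.1% to 47.1%; between fractions it moved that share from 47.5% to 65.7% without drug and from 63.6% to 46.5% with it (48.7% with limma-voom), and for the differences of response from 93.5% to 69.2%. Same-numbered fractions of 1 treatment deviated together (r = 0.35 and 0.43 over genes), and across treatments r was -0.09 to 0.08. The labels do not say whether same-numbered fractions came from 1 sort, so the fit reported has no block. A replicate block over all 8 libraries gave 5 members lower in negative and 4 lower in positive cells, as without it, with 500, 3741 and 883 genes called. A replicate block within treatment gave member counts of 6, 7 and 5 and called 1923, 6671 and 3850 genes. Depth limited the selumetinib CCNB1-negative values of FBXO5 and ESPL1, which rested on 40 to 73 reads.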
